A study of Mus musculus with 2 samples.

Results

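The collagen genes are the 44 genes whose symbol consists of Col, a type number, the letter a and a chain number, out of 55536 annotated genes. They were measured in the heart of B6CASTF1/J mice, the first-generation cross of the C57BL/6J and CAST/EiJ strains. Both animals were males aged 10 days, and there was 1 group with 2 libraries and no treatment or mutation, so no comparison between conditions was possible. Each library was made from 300 ng of total RNA after ribosomal RNA reduction, kept strand information and carried ERCC spike-in RNAs. The labels number the males separately while both point to 1 donor record, and each library was treated here as 1 animal (replicate 1 and replicate 2). The labels give heart tissue without naming its regions, so each level is an average over the cell types the sample held, and fewer cells of a type cannot be told apart from less RNA per cell.

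Collagens are secreted proteins made of 3 chains wound into a triple helix, which requires a repeated triplet of amino acids that starts with glycine. Fibrillar collagens form the banded fibres that bear tension between heart muscle cells, and in the heart they are made mainly by fibroblasts. Type IV collagens form the sheet of the basement membrane around muscle cells and vessels. Fibril-associated collagens with interrupted triple helices (FACIT) sit on the surface of fibres, type VI forms beaded filaments, and types VIII and X form hexagonal networks.

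The repeat can be read in the reference sequence of the genes themselves. The exons below are shown because many coding exons of fibrillar genes are 54 bases long and hold a whole number of triplets. They come from the GENCODE M21 transcripts (mm10) and are written 5′ to 3′ on the coding strand. The glycine codon (GGN) that starts each triplet is in capitals. The Col1a1 exon is exon 8 at chr11:94939904-94939957 on the plus strand, the Col1a2 exon is exon 8 at chr6:4515481-4515534 on the plus strand, the Col3a1 exon is exon 6 at chr1:45325360-45325413 on the plus strand, and the Col5a2 exon is exon 10 at chr1:45422386-45422439 on the minus strand. All 4 are coding exons with 6 triplets.
Col1a1: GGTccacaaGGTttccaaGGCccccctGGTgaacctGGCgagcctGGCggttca
Col1a2: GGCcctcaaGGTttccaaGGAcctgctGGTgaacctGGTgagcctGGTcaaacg
Col3a1: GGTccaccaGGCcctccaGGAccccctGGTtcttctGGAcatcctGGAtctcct
Col5a2: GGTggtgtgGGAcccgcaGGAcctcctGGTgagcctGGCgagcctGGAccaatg

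The basement membrane chain Col4a1 is shown for contrast, in a stretch of 54 bases of exon 25 at chr8:11227043-11227096 on the minus strand. Here the repeat is broken: a run of 20 triplets ends, 7 codons lie outside the repeat, and a run of 23 triplets begins. Capitals mark the in-frame glycine codons of the runs.
Col4a1: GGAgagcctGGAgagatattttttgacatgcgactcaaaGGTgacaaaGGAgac

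Over whole coding sequences the classes differed in the same feature. The longest unbroken run of triplets held 216 to 344 triplets in the 11 fibrillar genes, with a median of 338. Col3a1 had 344, Col1a2 339 and Col1a1 338, while Col24a1 with 216 and Col27a1 with 217 were the shortest of the class. The longest run was 39 to 66 triplets in the 6 basement membrane genes, which instead held 16 to 19 separate runs of at least 10 triplets. It was 60 or 61 triplets in the 3 hexagonal network genes, 37 to 87 in the 6 beaded filament genes, 32 to 113 in the 9 FACIT genes and 30 in both multiplexin genes. The fibrillar range thus did not overlap that of any of these classes.

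Exon lengths followed the classes as well. Fibrillar genes had 21 to 33 coding exons of 54 bases each, and in 302 of those 305 exons every triplet started in frame with a glycine codon. FACIT genes had 4 to 28 exons of 54 bases, and in 106 of 109 every triplet started in frame with a glycine codon. Basement membrane genes had 1 to 3 and hexagonal network genes had 0, since Col8a1, Col8a2 and Col10a1 have only 2 coding exons each. Among the FACIT genes, Col22a1 stood nearest to the fibrillar genes with 28 such exons and a run of 113 triplets.

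**Figure D1:**
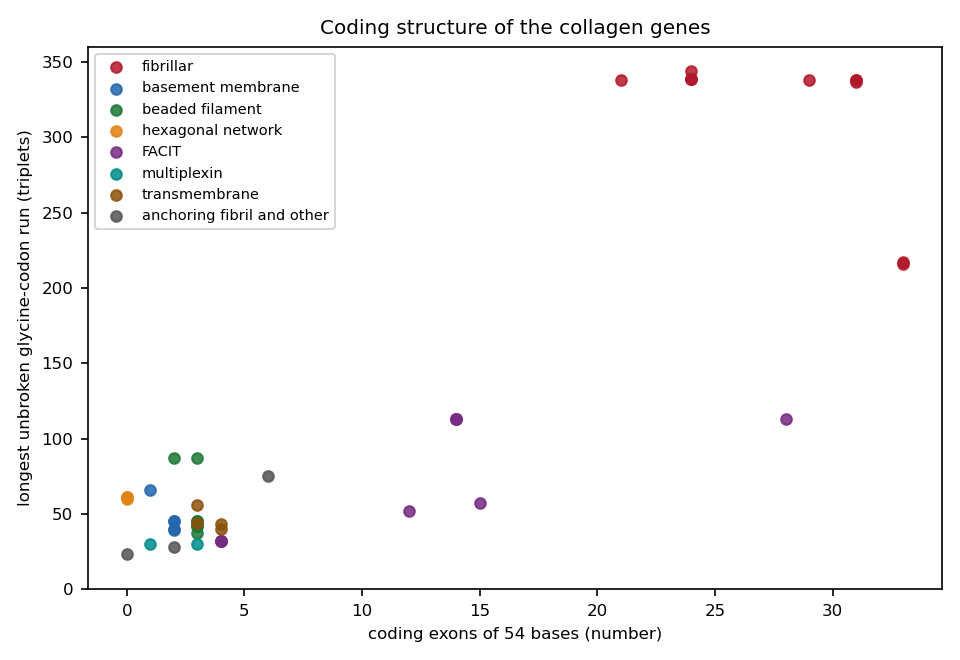
Number of coding exons of 54 bases (x axis) against the longest unbroken run of glycine-codon triplets (y axis) for the 44 collagen genes, 1 point per gene, coloured by class; points of genes with equal values coincide. All 11 fibrillar genes lie at 216 triplets or above, and every other gene lies at 113 or below.

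The libraries were close in depth. Expected counts summed to 38851514 for replicate 1 and to 37907585 for replicate 2. A count of 0 allows up to 3 counts, which equal 0.0772 and 0.0791 CPM (counts scaled to a common library total). Intervals given below describe only the error of counting, because the reads carry no molecular identifiers and may be copies of a molecule, and the spread between these libraries may be partly technical. The RNA had the markers of its labelled tissue: all 10 cardiomyocyte markers were detected, led by Myh6 with 8595 TPM (transcripts scaled for length and library total) in replicate 1 and 8333 TPM in replicate 2 and by Myl2 with 7897 and 7485 TPM. Markers of fat, atrium and nerve differed widely between the libraries, as given beside the ratios they touch.

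Collagen transcripts made up a small and unequal share of the RNA. They took 1.172% of all expected counts in replicate 1 (exact Clopper-Pearson 95% interval 1.1683% to 1.1751%) and 0.8527% in replicate 2 (0.84979% to 0.85565%). Their summed level was 2885 TPM in replicate 1 and 1982 TPM in replicate 2, a mean of 2433 ± 638.8 TPM (SD, n = 2). Detection meant at least 1 TPM in each library, and 24 of the 44 collagen genes passed it. The background is 52.4% of 22028 protein-coding genes, so as a family the collagens were detected about as often as other protein-coding genes.

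Most of the collagen RNA came from a few genes of the fibrillar and basement membrane classes. The 5 highest genes, Col3a1, Col4a1, Col1a1, Col4a2 and Col1a2, held 78.17% of the collagen TPM in replicate 1 and 77.77% in replicate 2. The 10 highest held 93.4% and 93.18%. The 11 fibrillar genes held 54.25% and 49.5%, the 6 basement membrane genes 29.55% and 34.23%, the 6 beaded filament genes 8.536% and 8.42%, and the 2 multiplexins 5.286% and 5.561%. FACIT genes held 1.978% and 1.823%, and the hexagonal network genes held only 0.1334% and 0.1423%. Read through 1 long protein-coding transcript per gene, the mean FACIT share was 1.036% rather than 1.9%, and the order of these 6 classes was as above.

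**Figure D2:**
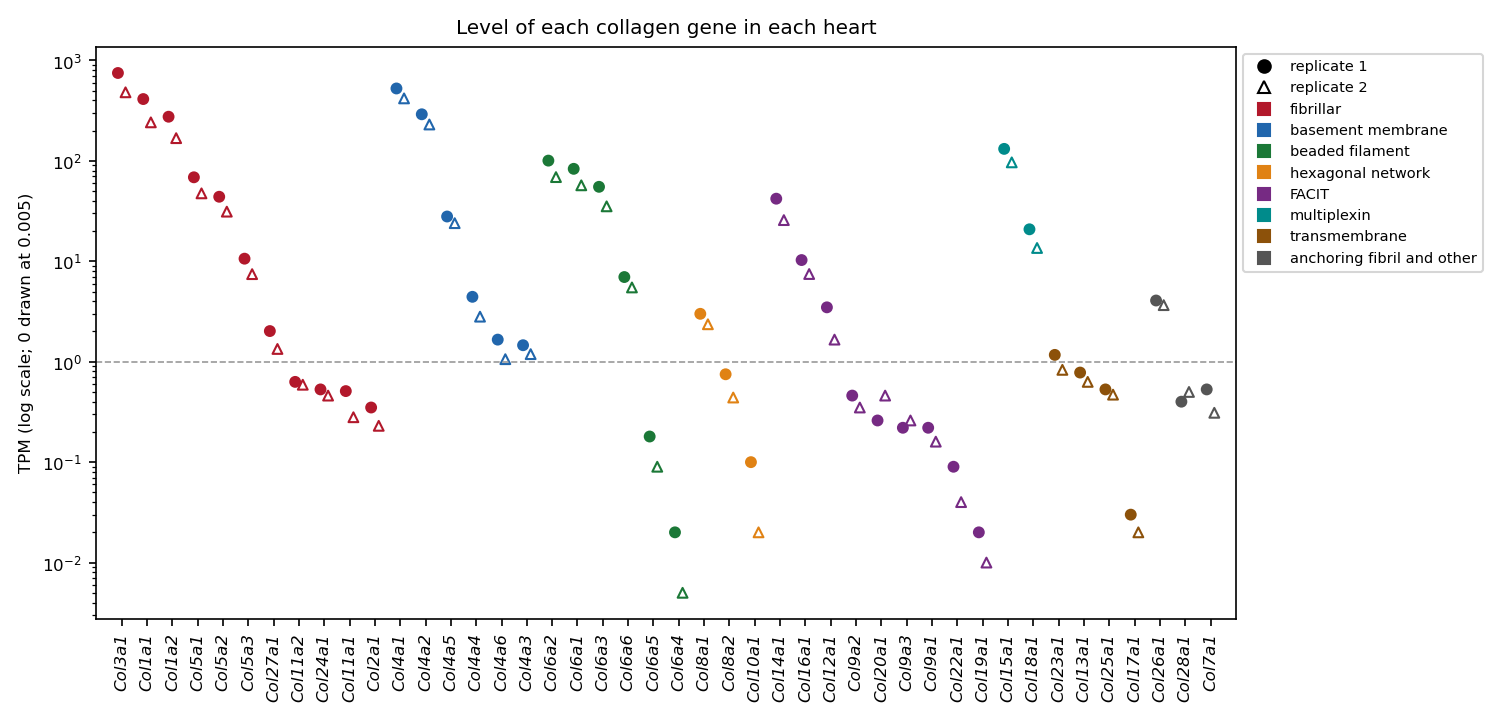
Level of each of the 44 collagen genes in TPM (log scale; a level of 0 is drawn at 0.005) in replicate 1 (filled circles) and replicate 2 (open triangles), grouped and coloured by class; the dashed line marks 1 TPM. Fibrillar and basement membrane genes span from 750.2 TPM for Col3a1 to below or near 1, and all 4 transmembrane genes lie near or below the line.

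Among the fibrillar genes, those of types I, III and V carried nearly all of the level. Col3a1 (chr1:45311538-45349706, plus strand), the single chain of the type III fibres that accompany type I in distensible tissue, had 750.2 TPM in replicate 1 and 482 TPM in replicate 2. Its mean of 616 ± 189.9 TPM (SD, n = 2) placed it at rank 76 of the protein-coding genes. Col1a1 (chr11:94936224-94953042, plus strand), which gives a pair of the 3 chains of most type I collagen, had 413 and 242 TPM. Col1a2 (chr6:4504814-4541544, plus strand), which gives the remaining chain, had 275 and 168 TPM. These 3 genes rested on 25938 to 110112 counts per library, and each was higher in replicate 1.

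Type V collagen is built into type I fibres and limits their diameter. Its chain Col5a1 had 68.6 TPM in replicate 1 and 47.5 TPM in replicate 2, and its partner Col5a2 had 43.9 and 31.2 TPM. The further chain Col5a3 had 10.6 and 7.45 TPM. Col27a1, a fibrillar gene known from cartilage, had 2.02 and 1.34 TPM, the lowest of the 7 fibrillar genes detected.

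The other 4 fibrillar genes lay between 0.23 and 0.63 TPM. They were Col2a1, the main collagen of cartilage, with 16 counts in replicate 1 and 24 in replicate 2, Col11a1 with 106 and 56, Col11a2 with 96 and 95, and Col24a1 with 113 and 57. The cartilage list had 3 of 13 markers detected, and Matn1 was at 0 counts in both libraries.

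All 6 basement membrane genes were detected, over a wide range of levels. Col4a1 (chr8:11198423-11312826, minus strand) had 526 TPM in replicate 1 and 419 TPM in replicate 2, with a mean of 473 ± 75.7 TPM (SD, n = 2) and rank 110. Col4a2 (chr8:11312805-11449287, plus strand) had 291 and 230.3 TPM. These are the chains of the type IV collagen found in nearly every basement membrane. Col4a5, which replaces them with other partners in some basement membranes such as that of the kidney filter, had 27.9 and 24.0 TPM. Its partners were much lower: Col4a4 had 4.43 and 2.81 TPM, Col4a3 had 1.46 and 1.19 TPM, and Col4a6 had 1.66 and 1.06 TPM. Col4a3 and Col4a6 did not differ beyond their spread, with means of 1.32 ± 0.191 and 1.36 ± 0.424 TPM (SD, n = 2 each).

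The beaded filament genes separated into an abundant and a scarce set. Col6a2 had 101 TPM in replicate 1 and 68.9 TPM in replicate 2, Col6a1 had 83.3 and 57.1 TPM, and Col6a3 had 55.2 and 35.3 TPM. These chains together form the type VI filaments that link cells and basement membranes to the surrounding matrix. Of the 3 further chains that can replace Col6a3, Col6a6 had 6.97 and 5.49 TPM, Col6a5 had 0.18 and 0.09 TPM and Col6a4 had 0.02 and 0 TPM.

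Of the 9 FACIT genes, 3 were detected. Col14a1, which binds the surface of type I fibres, had 42.0 TPM in replicate 1 and 25.7 TPM in replicate 2. Col16a1 had 10.3 and 7.47 TPM. Col12a1, which also binds type I fibres and is known from tissue under tension, had 3.48 and 1.66 TPM. The remaining 6 were Col9a1, Col9a2 and Col9a3 of cartilage type IX, Col19a1, Col20a1 and Col22a1, and they lay between 0.01 and 0.46 TPM with at most 39 counts in a library.

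Both multiplexins were detected. Col15a1, a collagen of the basement membrane zone, had 132 TPM in replicate 1 and 96.6 TPM in replicate 2 and was the highest collagen gene after the 5 named above. Col18a1, from which the fragment endostatin is cut, had 20.8 and 13.6 TPM. Of the hexagonal network genes, Col8a1, known from vessel walls and the cornea, had 3.00 and 2.36 TPM, and its partner Col8a2 had 0.75 and 0.44 TPM. Col10a1, a marker of hypertrophic cartilage, had 9 and 2 counts.

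None of the 4 transmembrane collagens reached the detection level in both libraries. Col23a1 stood just outside it with 1.17 TPM in replicate 1 and 0.83 TPM in replicate 2, and the gene just inside, Col4a6, had 1.66 and 1.06 TPM. Col13a1, a collagen of the neuromuscular junction, had 0.78 and 0.63 TPM, and Col25a1 had 0.53 and 0.47 TPM. Col17a1, which anchors skin cells to their basement membrane, had 5 and 4 counts. Of the last class, Col26a1 was detected with 4.07 and 3.66 TPM, Col28a1 had 0.40 and 0.50 TPM, and Col7a1, the anchoring fibril collagen of skin, had 0.53 and 0.31 TPM.

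Chains of 1 collagen type, and a few pairs of different types, were set against each other within each library, as log2 ratios after adding 0.1 to each TPM. With 2 animals a sign-flip permutation test cannot give a p below 0.5, so the 15 pairs are described without one. Col1a1 over Col1a2 was 0.58 in replicate 1 and 0.52 in replicate 2, a mean of 0.55 ± 0.04 (SD, n = 2), or 1.47-fold. The other quantification gave a mean of 0.28 for that pair and 1 long transcript per gene gave 0.67, so the excess of Col1a1 had the same direction and an uncertain size. Col3a1 over Col1a1 had a mean of 0.93 ± 0.09 (SD, n = 2), with 1.39 in the other quantification and 0.71 from long transcripts.

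The basement membrane pairs kept their order in both quantifications and from long transcripts. Col4a1 over Col4a2 was 0.85 in replicate 1 and 0.86 in replicate 2, a mean of 0.86 ± 0.01 (SD, n = 2). It was 1.07 in the other quantification and 0.42 from long transcripts, so its direction held while its size differed. Col4a5 over Col4a3 had a mean of 4.19 ± 0.04 (SD, n = 2), or 18.3-fold, and Col4a5 over Col4a6 had a mean of 4.18 ± 0.27 (SD, n = 2), or 18.2-fold. Col4a4 over Col4a3 was 1.54 and 1.17.

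The minor fibrillar and the beaded filament pairs varied little between the animals. Col5a1 over Col5a2 had a mean of 0.62 ± 0.03 and Col5a3 over Col5a2 a mean of -2.04 ± 0.01 (SD, n = 2 each). Col6a1 over Col6a2 was -0.27 in both replicates. Col6a3 over Col6a2 had a mean of -0.92 ± 0.07 (SD, n = 2), and -1.64 from long transcripts. The long Col6a3 transcript used in that setting held 57.2% of the gene's TPM in replicate 1 and 57.5% in replicate 2. Of the transcripts left out, the highest was a short one with a retained intron, with 22.06% and 22.5%. Col15a1 over Col18a1 had a mean of 2.74 ± 0.12 (SD, n = 2) and a mean of 2.00 in the other quantification.

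The balance between a basement membrane chain and a fibrillar chain was the least settled of the abundant pairs. Col4a1 over Col1a1 was 0.35 in replicate 1 and 0.79 in replicate 2, a mean of 0.57 ± 0.31 (SD, n = 2). From long transcripts it was -0.06 and 0.32, so in replicate 1 the direction depended on the transcripts counted. Pairs of low genes, such as Col11a1 over Col11a2 with -0.26 and -0.86, had as wide a spread.

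**Figure D3:**
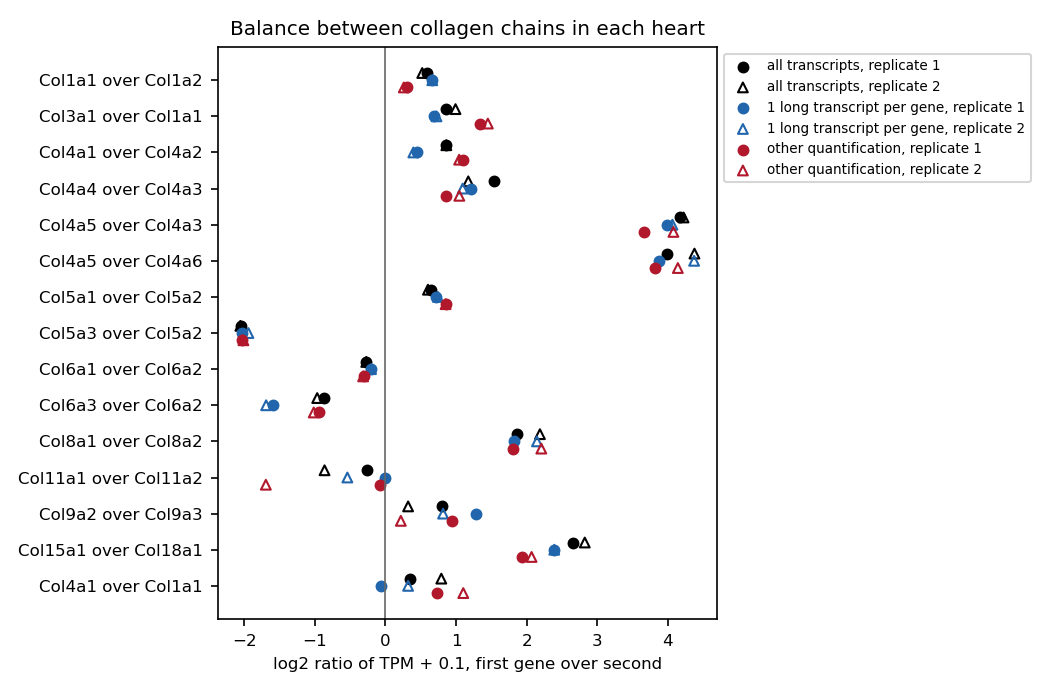
Log2 ratio of TPM (pseudocount 0.1) of the first gene over the second for 15 pairs of collagen genes, in replicate 1 (filled circles) and replicate 2 (open triangles), from all transcripts (black), from 1 long transcript per gene (blue) and from the other quantification (red). Values right of the line at 0 mean that the first gene is higher, and only Col4a1 over Col1a1 and Col11a1 over Col11a2 have points at or across that line from the rest of their pair.

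Transcript shares were read from the 17 collagen genes with at least 2 annotated transcripts and 5 TPM. In 16 of the 17 the same transcript was highest in both deposited quantifications, and in 16 it held over 50% of the gene's TPM in both libraries. In 9 it held over 90% in replicate 1. The full-length transcript of Col1a1, of 5930 bases, held 98.86% in replicate 1 and 99.13% in replicate 2, and that of Col4a2, of 6450 bases, held 98.87% and 98.92%. The exception was Col16a1, where the highest entry was a processed transcript of 833 bases with 20.97% and 25.97%, and the other quantification put the full-length coding transcript above it in replicate 1 (30.65% against 10.84%) but not in replicate 2 (19.96% against 24.54%).

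Short transcripts took a visible share of several abundant genes, and the quantifications differed over them. A coding transcript of 545 bases held 24.92% of the Col4a1 TPM in replicate 1 and 27.79% in replicate 2, but 12.66% and 13.48% in the other quantification. For Col3a1, a coding transcript of 737 bases held 8.97% and 14.25%, but 37.25% and 40.21% in the other quantification. For Col15a1, a coding transcript of 1755 bases held 22.18% and 24.36% in one and was listed at 0 in the other. Col14a1 was the abundant gene with the most evenly divided coding transcripts, since the one of 6457 bases held 54.24% and 51.88% and the one of 5679 bases held 25.08% and 27.01%. The TPM share of a short transcript can rest on a small part of a gene's reads. The short Col4a1 transcript had 1768 of the gene's 78946 counts in replicate 1 and 1663 of 64292 in replicate 2.

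Several collagen genes lie side by side in the genome. Col4a1 and Col4a2 are head to head on chromosome 8, Col4a4 and Col4a3 are head to head on chromosome 1 with 71 bases between them, and Col4a6 and Col4a5 are head to head on chromosome X with 1308 bases between them. Col3a1 and Col5a2 lie tail to tail 24.6 kb apart on chromosome 1, and Col6a2 and Col6a1 lie 85.2 kb apart on chromosome 10. The Col4a1 and Col4a2 annotations share the 22 bases at chr8:11312805-11312826, shown here on the plus strand, from RefSeq sequence of GRCm38.p6, because both annotated genes begin in it.
Col4a1 and Col4a2: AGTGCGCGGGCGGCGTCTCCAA

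The levels within these head-to-head pairs were unequal. Col4a1 and Col4a2 were both among the 5 highest collagen genes, while Col4a5 stood 18.2-fold above its neighbour Col4a6. The sources used here do not say whether counting was stranded, so reads in the shared 22 bases could be assigned to either gene. Overlap also limits Col10a1, whose 9 and 2 counts lie within Nt5dc1 on the other strand with 289 and 249 counts, and Col20a1, whose 30 and 31 counts overlap a gene on the same strand with 189 and 180 counts.

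Promoters, taken as the 250 bases before each RefSeq start (GRCm38.p6), were searched on both strands for 3 short motifs, each counted on its own. The table held 38 entries for 35 collagen genes, and the other 9 genes, Col1a1 among them, had no entry. The TATA box, searched as TATAAA, was in 13.2% of the collagen entries and in 12.4% of all 32851 promoters. The CCAAT box was in 34.2% of the collagen entries and in 33.8% of all promoters. The GC box, searched as GGGCGG, was in 57.9% of the collagen entries and in 32.7% of all promoters, and its letters can overlap those of a CCAAT box by their ends. In the 20 entries of detected collagen genes the TATA box was in 5.0%, the CCAAT box in 35.0% and the GC box in 65.0%. Col4a2 held a CCAAT box at 32 to 28 bases before its start and GC boxes at 48 to 43 and at 192 to 187 bases before it. These matches are descriptions of the letters and were not tested.

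Differences between the animals were measured on expected counts rather than on TPM. Counts were scaled by edgeR's TMM factors, and the log2 ratio of replicate 1 over replicate 2 was taken with an exact 95% interval for genes with a mean count of at least 50. Of the 31 collagen genes compared, 23 had an interval above a ratio of 1 and 0 had an interval below it. The background was 20.6% of 13211 genes above and 22.3% below. The collagen median was 0.32, against -0.01 over all genes compared, and 29 of the 31 ratios were above 1. None passed 2-fold, a size reached by 1.79% of all genes compared. Scaling by the total expected count moved the median of all genes by 0.1061 and gave 27 collagen genes above and 0 below. The 13 collagen genes with fewer counts were not compared.

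The biological coefficient of variation over 16166 genes corresponds to a log2 SD of 0.30 for a ratio between the animals, and 17 collagen ratios lay beyond it. Over all genes compared, 21.1% did. The coefficient was estimated from these same 2 libraries, so it is not an independent measure of their spread. With 1 library per animal and no groups, no ratio could be tested against the spread between animals.

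The abundant fibrillar genes had the most precise of the high ratios. Col1a1, with 71967 counts for replicate 1 and 44812 for replicate 2, had a log2 ratio of 0.54 (interval 0.53 to 0.56). Col1a2 had 41390 and 25938 counts and a ratio of 0.53 (0.51 to 0.56). Col3a1 had 110112 and 71064 counts and a ratio of 0.49 (0.48 to 0.50), although a gene on the same strand, Gm47302, overlaps it with 1605 and 894 counts. The type V chains Col5a1 and Col5a2 had lower ratios of 0.34 each, and Col5a3 had 0.28. Col24a1 had the highest ratio of all with 0.84, on 113 and 57 counts (interval 0.37 to 1.33).

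The abundant basement membrane genes differed less between the animals. Col4a1, with 78946 counts for replicate 1 and 64292 for replicate 2, had a log2 ratio of 0.16 (interval 0.14 to 0.17), and Col4a2 had 55312 and 46407 counts and a ratio of 0.11 (0.09 to 0.13). Col4a5 had 5236 and 4673 counts, and its ratio of 0.02 had an interval that held 0 (-0.03 to 0.08), though not with scaling by the total count, the nuclear total or the spike-ins, which gave 0.13, 0.10 and 0.09. The low gene Col4a6 stood apart from these abundant genes with 0.56 (0.30 to 0.83). The other low genes, Col4a4 with 0.26 (0.13 to 0.39) and Col4a3 with 0.115 (-0.105 to 0.337), had intervals that overlapped that of Col4a6. The Col4a3 interval held 0, though not under the total count, which gave 0.22. The class median was 0.14 for basement membrane genes and 0.42 for fibrillar genes, with ranges of 0.02 to 0.56 and -0.13 to 0.84 that overlapped, and this difference was not tested.

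Most genes of the other classes lay between or above these. The 3 FACIT genes compared had ratios of 0.46 to 0.62, with Col12a1 highest and Col14a1 at 0.49. Beaded filament genes had 0.11 to 0.40, with Col6a6 lowest, and the multiplexins Col15a1 and Col18a1 had 0.32 and 0.36. All 9 of these genes had an interval above a ratio of 1. None of the 3 transmembrane genes compared did, nor did Col26a1 with 0.07 (-0.17 to 0.30). The exception among scalings was Col23a1, whose ratio of 0.27 became 0.38, 0.35 and 0.34 with an interval above 1 under the total count, the nuclear total and the spike-ins. Of the hexagonal network genes, Col8a2 had 0.56 (0.08 to 1.05) and Col8a1 had 0.12 (-0.08 to 0.32), which also passed under the total count with 0.23. The 2 genes with a ratio below 1 were Col11a2 with -0.13 (-0.55 to 0.30) and Col25a1 with -0.12 (-0.58 to 0.33), and both intervals held 0. In the other quantification Col25a1 had 0.04 and Col13a1 had -0.09.

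Chains of 1 molecule had close ratios in several cases, as did some chains that share no molecule. The ratios of Col1a1 and Col1a2 differed by 0.01, those of Col5a1 and Col5a2 by -0.01 and those of Col6a1 and Col6a2 by -0.004, and in each pair the intervals overlapped. Col4a1 and Col4a2 differed by 0.04, a small gap that their narrow intervals still separated. Wider gaps stood between Col4a5 and Col4a6 with -0.54 and between Col11a1 and Col11a2 with 0.90, and in neither pair did the intervals overlap. Col8a1 and Col8a2 differed by -0.44 with overlapping intervals. Of pairs that share no molecule, Col4a1 and Col1a1 differed by -0.39 and Col3a1 and Col1a1 by -0.05, with intervals that did not overlap. Col15a1 and Col18a1 differed by -0.05 with overlapping intervals, so close ratios were not particular to chains of 1 molecule.

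**Figure D4:**
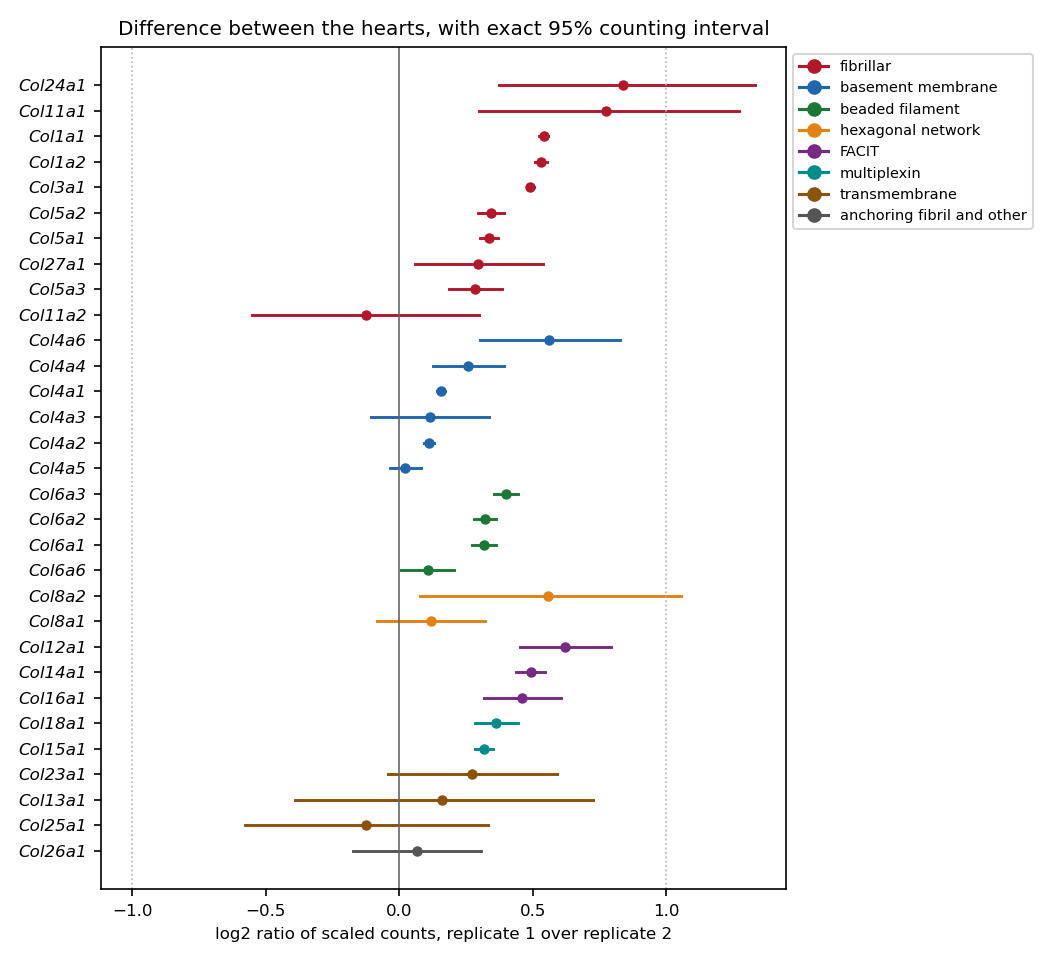
Log2 ratio of scaled expected counts of replicate 1 over replicate 2 for the 31 collagen genes with a mean count of at least 50, ordered by class, with exact 95% intervals that cover counting error only; dotted lines mark a 2-fold difference. 29 of 31 points lie right of 0, 23 with their whole interval, and no point passes the 2-fold lines.

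Markers of several cell types moved between the same libraries, and their part in the collagen ratios was not tested. All 16 fibroblast markers outside the collagens were detected, with a sum of 919.6 TPM in replicate 1 and 603.1 TPM in replicate 2. Their median log2 ratio was 0.41, and 13 of 16 had an interval above 1 and 1 below. For these and the marker lists that follow, the background over all genes compared was 20.6% above and 22.3% below. Postn had 214 and 137 TPM, and Dcn had 207 and 139 TPM. The median of the 10 cardiomyocyte markers was -0.18, with 1 above and 9 below, and that of the 10 endothelial markers was 0.03, with 3 above and 1 below. Marker calls, here and in the lists that follow, are given for TMM scaling only. Scaling by the spike-ins, the nuclear total or the total count raises every log2 ratio by 0.0707, 0.0750 or 0.1061. Calls of markers with ratios near 0, as in the cardiomyocyte and endothelial lists, can therefore change. The 10 smooth muscle and pericyte markers had a median of 0.13, with 5 above and 2 below. Among them Acta2 had 0.41, while Rgs5 had -0.06. Macrophage markers had a median of 0.46, with 7 of 9 above and 0 below.

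Larger differences were found in markers of fat and atrium. Adipocyte markers summed to 1090 TPM in replicate 1 and 464 TPM in replicate 2, and all 7 compared were higher in replicate 1. Their median log2 ratio was 4.95, and 6 of the 7 passed 2-fold, against 1.79% of all genes compared. Ucp1 had 239 and 5.02 TPM. Fabp4, which made up most of the sum in each library, had 666 and 433 TPM and a log2 ratio of only 0.36. Atrial markers summed to 1572 and 308 TPM, with Nppa at 753 and 116 TPM and Myl7 at 393 and 86.6 TPM. Mesothelial markers summed to 61.6 and 36.4 TPM, Schwann cell and neuron markers to 22.3 and 6.04 TPM, and valve and cartilage markers to 16.2 and 11.5 TPM. Of the markers compared, 7 of 10 atrial, 8 of 10 mesothelial, 3 of 6 nerve and 3 of 5 valve and cartilage genes had an interval above 1. The background was again 20.6% of all genes compared. Kcna5 of the atrial list, with a log2 ratio of -0.68, and Scx of the valve and cartilage list, with -0.44, had an interval below 1.

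Collagen chains need enzymes and chaperones to become fibres. A list of 69 genes by role covered these steps, and 68 were matched and 54 detected. It also held 9 fibril partners, 10 genes of receptors and uptake and 10 of cleavage and inhibitors. Of the 60 compared, 37 had an interval above a ratio of 1 and 4 below, with a median log2 ratio of 0.19. Fibril partners, receptors and cleavage genes gave 8, 4 and 3 of those above and 0, 1 and 1 of those below. The same background of 20.6% above and 22.3% below applies, and none passed 2-fold. The 4 lower in replicate 1 were P4ha2 with -0.15, Adamts3 with -0.57, Ddr1 with -0.15 and Timp3 with -0.28. With scaling by the total count, the nuclear total or the spike-ins, the calls of P4ha2 and Ddr1 were lost, and that of P4ha2 was also lost with DESeq2 size factors.

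Of the genes that act on the chain inside the cell, 9 of 10 for proline hydroxylation, 6 of 6 for lysine modification and 7 of 7 for folding and export were detected. The exception was P4ha3 with 1.39 TPM in replicate 1 and 0.44 TPM in replicate 2. P4hb, a subunit of the enzyme that hydroxylates proline and so stabilises the helix, had 130.0 TPM in replicate 1 and 97.0 TPM in replicate 2. Ppib, a proline isomerase of the same compartment, had 109 and 78.2 TPM. Of 10 genes for proline hydroxylation, 7 had an interval above 1 and 1 below. Among genes listed for the role of lysine modification, Plod1 had 40.8 and 33.4 TPM and Fkbp10 had 24.5 and 19.8 TPM, and 3 of 6 were above. Serpinh1, the collagen chaperone HSP47, was the highest intracellular gene listed with 185 and 132 TPM and a ratio of 0.28. Mia3, which loads collagen for export, had 44.6 and 39.6 TPM, and 4 of the 7 genes for folding and export were above.

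Genes that act outside the cell included both high and absent members. For cutting of the propeptides, Pcolce had 53.1 TPM in replicate 1 and 36.8 TPM in replicate 2 and the protease Bmp1 had 26.9 and 20.9 TPM. Tll1 and Tll2, relatives of Bmp1, were under 1 TPM in both, and Mep1a and Mep1b had 0 counts. For cross-linking, Pxdn, which links type IV collagen, had 88.6 and 74.2 TPM and Loxl2 had 40.0 and 25.6 TPM, while Loxl4 stayed under 1 TPM. In this role 4 of 6 genes had an interval above 1, with a median of 0.34.

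The fibril partners had the highest median ratio of the roles, 0.35, with 8 of 9 genes above. Sparc, which binds collagen in the matrix, had 731 TPM in replicate 1 and 517 TPM in replicate 2, and Postn had the next highest mean, 176 TPM, close to the 173 TPM of Dcn. Of the listed genes, Dcn, Lum, Postn and Ddr2 are also among the fibroblast markers and Comp among those of valve and cartilage. For receptors, Itgb1 had 253 and 217 TPM and Itga1, which pairs with it to bind collagen, had 30.9 and 24.7 TPM. Itga10, Itga11, Gp6 and Lair1 were under 1 TPM in both libraries. For cleavage, Timp3, an inhibitor of matrix proteases, had 93.1 and 98.3 TPM, and Timp2 had 83 and 62.6 TPM. The collagenases Mmp8 and Mmp13 and the gelatinase Mmp9 were under 1 TPM in both libraries. Other listed proteases were detected: Mmp2 had 78.2 and 55.4 TPM, Mmp14 had 44.4 and 31.8 TPM, and Ctsk had 7.3 and 5.88 TPM.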

How the data were processed

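Total RNA of 2 hearts was measured in 2 libraries of 1 group, each with gene and transcript tables of one quantification and transcript tables of another. The authors used, per the file headers and deposited notes, the mm10 build and GENCODE M21, and the first quantification worked from transcriptome alignments. Which programs made them is not given in the sources used here. Both of the authors' quantifications hold expected counts (estimated counts in the other table), which divide reads that match several transcripts. The deposited TPM and FPKM are per length and per library, and CAST reads that differ from the B6-based reference could be lost alike in both libraries. Rows that name no gene (26249 rows with 3.89 and 3 counts) were left out.

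The gene classes, pathway lists and marker lists were chosen with earlier results of these data known. Expected counts were rounded, scaled by TMM factors (edgeR 4.0.16, R 4.3.3) over all genes, and 0.5 was added before taking ratios. No significance test was run, because there is 1 group. Intervals are exact Clopper-Pearson, 95%. The script was tested on simulated data. DESeq2 1.42.0 size factors, other scalings, filters, pseudocounts and the other quantification were alternatives. Named were all collagen genes and, in other lists, the 2 highest members per list or role, members over 2-fold, members under 1 TPM and those at 0 counts. Also named were the 4 pathway genes lower in replicate 1, P4ha3, Kcna5, Mmp2, Mmp14 and Ctsk, which were chosen after their values were seen. Chosen likewise after seeing the data, 1 long transcript per gene was the protein-coding transcript with the highest mean TPM among those of at least 75% of the longest one's length. Col21a1 and Ctage5 matched no gene. Triplet runs were read from coding sequence of GENCODE M21, and protein sequences were not analysed here.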

Additional observations from a re-analysis of the deposited data

How the results depend on the processing

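Of the alternative values for the main results, 106 stayed within 1.5 times a count or within the spread of the replicates, 21 moved further, and none reversed. Under every scaling, filter and quantification tried, 23 to 27 collagen genes had an interval above a ratio of 1, and 0 had one below or passed 2-fold with an interval clear of 1. With no filter, Col10a1 and Col6a4 had ratios past 2-fold on at most 9 counts, with intervals that held 1. Without replicate 1, 24 collagen genes were detected, and without replicate 2, 25. The collagen median log2 ratio moved to 0.42 with scaling by the total count and to 0.51 as a ratio of TPM. For the genes listed by role, all roles together, these settings gave 0.30 and 0.42. The number below 1 was 2 under total-count, nuclear-total and spike-in scaling, and 1 gene passed 2-fold under those scalings and with no filter. Shares of collagen TPM moved in the other quantification to 0.1221% (hexagonal network), 7.595% (beaded filament), 1.625% (FACIT) and 4.073% (multiplexin). From 1 long transcript per gene they moved to 0.1568%, 8.723%, 1.036% and 4.645% in that order, with 0.0775% for transmembrane genes and 0.123% for anchoring fibril and other. For single genes and pairs, 477 alternative values stayed, 31 moved by more than the spread, 30 gained and 7 lost an interval clear of a ratio of 1. The cause of these moves was not tested. No paired analysis was possible because there is 1 group. Depth limits the 13 collagen genes that had too few counts for a ratio.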
